A study of Mus musculus with 4 samples.

Results

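The probes described here lie on 50-base tiling arrays in stretches that carry no region name in the array design and sit on the autosomes other than chromosome 7. They were chosen by that design information alone (no random control, no region name, a chromosome in the probe name other than 7, X or Y). This gave 2480 of the 388160 tiling probes. Split wherever 2 neighbours were more than 10 kb apart, they formed 1544 loci on 18 chromosomes. Of these, 1276 loci held 1 probe, 91 held 2, 157 held 3 to 9 and 20 held 10 to 21. Probes of 1 locus were mostly 100 bp apart (76.2% of the gaps), and a locus of at least 3 probes spanned 550 bp in the median. The largest gap inside a locus was 9628 bp and the smallest between loci 10462 bp. Neighbouring loci lay 617938 bp apart in the median. Of the loci, 21 lay inside a named tiled region, and 30 within 100 kb of one. Positions are those of mouse build mm6 and give the start of the first probe, and they are not annotated with genes here.

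The study compared 4C product of R1 embryonic stem (ES) cells, an established mouse line, with that of embryoid bodies (EB), which the labels describe as ES cells differentiated for 12 days. The bait was the H19 imprinting control region. There were 2 arrays per state. Each held 4C product in Cy5 and MboI-digested genomic DNA of the same state in Cy3, and each replicate was a pool of 3 independent samples. No genotype or treatment other than differentiation is given, and embryoid bodies are a mixture of cell types. Arrays with the same replicate number shared the date in their file headers, and the numbers 1 and 2 stand for different header dates. Which step that date marks, such as scanning or extraction, is not known here.

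Circular chromosome conformation capture (4C) cross-links chromatin, cuts it with a restriction enzyme, ligates fragments that lie close together and amplifies what became joined to 1 bait. Fragments on the bait's own chromosome are captured in cis, and fragments of other chromosomes in trans. The H19 imprinting control region on distal chromosome 7 is methylated on the paternal allele and bound by the insulator protein CTCF on the maternal allele, where it keeps Igf2 silent and allows H19 to be transcribed. Every locus below is thus a trans locus with respect to that bait.

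Signal is given as log2 of the Cy5 intensity over the median of all tiling probes of the array. A probe or locus was called 4C-positive at 1 log2 unit or more, that is, 2-fold over that median, with a locus taken as the mean of its probes. Where a pair of values is given for a state, it is in the order of replicates 1 and 2. On this scale 1 in 100 of the 1193 random control probes exceeded 0.73 and 0.75 in ES, and 0.45 and 0.98 for EB. The scanner's upper limit lay at 6.08 and 5.43 in ES and 6.92 and 5.32 in EB. With 2 arrays per state the precision is low throughout. The limma p-values rest on the spread between replicates, which differ in pool, header date and version of the extraction software. The permutation tests use 1 value per array.

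Trans probes without a region name carried 4C signal more often than the named trans regions of the autosomes on each of the 4 arrays. Of the 2480 probes, 8.71% and 13.8% were positive on the ES arrays, against 6.25% and 6.29% for EB. Of the 275123 probes in named autosomal trans regions, 0.828% and 1.18% were positive in ES and 0.465% and 1.41% in EB. Random controls were positive at 0.503% and 0.335% in ES and 0.0838% and 1.01% in EB. The excess over the named regions was 7.88 and 12.6 percentage points on the ES arrays with 5.79 and 4.88 for EB, and had the same direction on 4 of 4 arrays. An exact sign-flip permutation test over the arrays gave p = 0.13 (two-sided), the smallest that 4 arrays allow. The unlabelled probes of chromosome X were positive at 1.43% and 2.71% in ES and 1.43% and 1.85% in EB. Those of chromosome 7, the bait's own, reached 38.0% and 46.8% in ES and 7.98% and 8.79% in EB.

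Most loci that carried signal did so in 1 cell state and not in the other. Of the 1544 loci, 62 (4.02%) were positive on both ES arrays and no EB array, and 40 (2.59%) on both EB arrays and no ES array. Over all 6046 features of the array, these loci included, 2.02% had the ES-only and 0.81% the EB-only pattern. Most of the other features were 10 kb windows of the named regions, in which a short stretch of signal is averaged with many probes, so the probes were also counted singly. Of the 2480 probes, 198 were ES-only and 139 EB-only, that is 7.98% and 5.60%. The shares were 0.684% and 0.0873% of all tiling probes, and 0.0265% and 0.0258% of the named autosomal trans probes.

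Arrays of 1 state shared more positive loci than arrays of 1 header date. Among loci positive on exactly 2 arrays, 62 were positive on the ES pair and 40 on the EB pair. The pairs that shared a header date, and the pairs that shared neither state nor date, had 0 loci each. Of the 78 loci positive on ES replicate 1, 85.9% were also positive on ES replicate 2, while 57.3% of the 117 positive on ES replicate 2 were so on ES replicate 1. Each EB array had 56 positive loci, of which 89.3% were positive on the other. Arrays of different states had 5 to 10 positive loci in common, with 5 and 10 for the pairs of 1 header date. The other 1364 loci (88.3%) were positive on no array.

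More loci were positive in ES than in EB, but the ES arrays differed from each other. Positive loci made up 5.05% and 7.58% in ES (mean 6.31% ± 1.79, SD, n = 2), against 3.63% on either EB array. The difference, EB minus ES, was -2.69 percentage points, with both ES arrays above both EB arrays and the same direction within each header date. It was -1.42 without ES replicate 2, -1.39 at a level of 2 log2 units, -4.37 with the ratio to input, -4.21 with normexp, -4.24 at the lower positive level tried and -11.0 in loci of at least 3 probes. With 2 arrays against 2, the exact permutation test gave p = 0.333, the smallest it can give. ES replicate 2 held 45 loci positive on that array alone, against 11 for ES replicate 1 and 6 for each EB array. On those 45 loci ES replicate 1 had a median of 0.55 log2 units, below the positive level, but it lay above both EB arrays at 40 of them. Without ES replicate 1, loci positive in ES alone numbered 107, which follows from the definition, as these are the 62 and the 45.

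The ES-only loci were at the level of the random controls in EB. On ES replicate 1 they ran from 1.20 to 5.53 log2 units with a median of 3.27, and on ES replicate 2 from 1.60 to 5.43 with a median of 5.11. On the EB arrays the medians were -0.017 and 0.016 and the highest value was 0.38, so the groups did not overlap at any of the 62 loci, which follows from how the pattern was defined. ES replicate 2 was higher than replicate 1 at 58 of the 62. Of the probes in these loci, 75.3% were less than 2-fold below the highest readable intensity on ES replicate 2, and 11.8% on ES replicate 1.

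The ES-only locus of most probes, 12, ran from 37126182 to 37127564 on chromosome 12. The loci described for their many probes, here and for EB, and those described for their neighbourhood were singled out after their values were seen. All its probes were positive on both ES arrays (means 2.99 and 5.12), and none on an EB array (0.078 and -0.082). On chromosome 19 a locus of 9 probes from 53112965 to 53114533 had 3.61 and 5.13 in ES with EB at 0.046 and -0.00045. Again each of its probes was positive on both ES arrays. Of the 28 ES-only loci of at least 3 probes, 16 had every probe positive on both ES arrays, and 28 had none positive in EB. On ES replicate 2 alone, 26 of the 28 had every probe positive. These loci spanned 550 bp in the median, so at most of them signal reached the first and the last probe that the array held.

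The EB-only loci had the reverse pattern, and here too the lack of overlap follows from how it was defined. On EB replicate 1 they ran from 2.55 to 6.91 log2 units with a median of 5.71, and on EB replicate 2 from 1.36 to 5.32 with a median of 4.87. On the ES arrays their medians were 0.026 and 0.040, and the highest value was 0.98. EB replicate 1 was higher than replicate 2 at 34 of the 40 loci. Near the upper limit lay 52.4% and 79.8% of their probes on the EB arrays, and the limit itself was higher on replicate 1.

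Of the 16 EB-only loci of at least 3 probes, 14 had every probe positive on both EB arrays and 16 had none positive in ES. On chromosome 14 a locus of 16 probes from 92417482 to 92419004 had 3.35 and 3.98 in EB with ES at 0.040 and 0.038, and 15 and 16 of its probes were positive on the EB arrays. A further locus of that chromosome, from 82391871 to 82392891 with 8 probes, had 6.86 and 5.03 in EB with ES at -0.056 and 0.057. All 8 of its probes were near the upper limit on both EB arrays. The locus of chromosome 15 from 64284904 to 64285504 had 7 probes, all positive on both EB arrays, with means of 5.96 and 5.18 against 0.027 and 0.075 in ES.

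Few single loci passed the fit across the array. Limma, fitted to 6046 features (loci, and 10 kb windows of named regions) with Benjamini-Hochberg adjustment, called 4 loci higher in ES and 2 higher in EB at an adjusted p under 0.05. Over all 6046 features, these loci included, 11 and 2 were called (0.182% and 0.0331%). The 2 features called higher in EB were thus these 2 loci. Most of the other features were 10 kb windows of many probes, so shares of all features are not like for like here. At an unadjusted p under 0.05, with both arrays of a state above both of the other, there were 125 and 120 loci (8.10% and 7.77%), against 4.33% and 2.78% of all features. The median EB minus ES over the 1544 loci was -0.017, against -0.0049 over all features. Without overlap between the states, ES was higher at 338 of the 1544 loci and EB at 268. Over all features, these loci included, the shares were 17.1% and 11.4%.

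The called loci had replicates of nearly equal signal, which the fit favours with 2 arrays per state. Each held a probe less than 2-fold below the highest readable intensity on at least 1 array of its state. The part of that limit in the equal signal was not tested. The single probe at 137467490 on chromosome 3 had 5.53 and 5.39 in ES with EB at -0.16 and -0.078, a difference of -5.59 ± 0.071 (SE, limma adjusted p = 0.0043). The single probe at 53969837 on chromosome 11 had 5.16 and 4.75 in ES with EB at 0.018 and 0.11 (-4.89 ± 0.17, limma adjusted p = 0.033). On chromosome 1 the 3 probes from 79251600 to 79251900 had 4.90 and 5.09 in ES with EB at -0.037 and 0.082 (-4.98 ± 0.092, limma adjusted p = 0.0092). In all 3 cases the ES arrays stood 4 or more log2 units over EB arrays that showed no signal.

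On chromosome 12 the 3 probes from 70442110 to 70442410 had 4.79 and 5.19 in ES with EB at 0.030 and 0.17 (-4.89 ± 0.17, limma adjusted p = 0.033). The single probe at 7107840 on chromosome 3 had the opposite pattern, with EB at 4.52 and 4.59 and ES at -0.20 and -0.25 (4.78 ± 0.044, limma adjusted p = 0.0023). The 4 probes from 97950785 to 97951090 on chromosome 4 had EB at 4.66 and 4.59 and ES at -0.17 and -0.14 (4.78 ± 0.040, limma adjusted p = 0.0023). With the replicate number, which goes with the header date, as a block, 0 of the 1544 loci were called in either direction. In that fit these 6 had limma adjusted p from 0.12 to 0.37. With 1 array left out, 1 state had a single array, and the number of calls changed strongly. The differences of the 6 loci kept their direction in these fits.

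How many loci were called depended on how the spread was modelled. When the prior variance was allowed to follow the number of probes, limma called 33 loci higher in ES and 35 higher in EB, where 1.62% and 0.695% of all features were called. All 4 and 2 loci of the first fit were among them. Of the 33, 33 had the ES-only pattern, and of the 35, 32 had the EB-only pattern. The chromosome 3 probe at 137467490 was among them for ES. For EB they included a pair of probes starting at 24854408 on chromosome 8, with EB at 6.91 and 5.21 and ES at 0.11 and -0.45. Its difference was 6.23 ± 0.71 without the trend (SE, limma adjusted p = 0.17), and the limma adjusted p with the trend was 0.0081. Both its probes were near the scanner's limit on both EB arrays, so loci of this kind could not be ranked by their difference. With each probe as a feature of its own, 61 of the 1544 loci held a probe called higher in ES and 42 a probe called higher in EB. Of those, 53 and 37 were ES-only and EB-only loci. The ES share lay below the 4.48% of all features, and the EB share above their 1.42%. Most of the other features were windows of many probes, so these shares are not like for like. The probes so called numbered 120 and 134, where 0.517% and 0.069% of all tiling probes were called.

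Loci of several probes carried signal more often than lone probes. Signal on at least 1 array was seen at 7.29% of the 1276 loci of 1 probe, 25.3% of the 91 loci of 2, 35.7% of the 157 loci of 3 to 9 and 40.0% of the 20 of at least 10. Without ES replicate 2 these shares were 5.72%, 15.4%, 28.7% and 15.0%, since 5 of the 8 loci behind the last one were positive on that array alone. The share thus rose up to 9 probes, and whether it went on rising rested on 1 array. On single arrays, 17.5% and 27.1% of the 177 loci of at least 3 probes were positive in ES and 11.3% on each EB array. Lone probes were positive at 3.06% and 4.15% in ES and 2.35% on each EB array, above the random controls on each of the 4 arrays. Because lone probes are many, they still made up 27 of the 62 ES-only and 18 of the 40 EB-only loci. The locus of most probes, 21 on chromosome 9, had no signal in either state, and 12 of the 20 loci of at least 10 probes were positive on no array.

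Both states had loci on every one of the 18 chromosomes. The ES-only loci outnumbered the EB-only loci on 10 chromosomes, the reverse held on 5, and 3 had equal counts. Chromosome 4 held 8 ES-only and 2 EB-only loci among 59, chromosome 12 held 7 and 1 among 126, and chromosomes 1 and 2 held 6 ES-only loci each among 35 and 40. On chromosome 17 the split was 1 ES-only against 6 EB-only loci among 73. Chromosomes 14 and 15 had the most loci, 223 and 222. Of these, 12 and 9 carried signal on any array (5.38% and 4.05%), while on chromosome 2 the share was 35.0%. Chromosome 2 held 13 loci of at least 3 probes among its 40, against 10 each on chromosomes 14 and 15. Loci of that size carried signal more often, as given above. The part of the array design in these counts was not tested, and no test was made between chromosomes.

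Some loci with signal lay close together, most often with others of the same pattern. Neighbouring loci of any kind lay 617938 bp apart in the median. Such groups thus depend on the array design too, and no expected number was worked out. Among the 112 loci positive on both arrays of at least 1 state, 25 lay in 9 neighbourhoods in which the next such locus was at most 1 Mb away. On chromosome 4, 4 lone probes at 144982626, 145285908, 145554649 and 145887010 were all ES-only, and no other locus lay between them. They had 3.84, 3.42, 3.86 and 4.26 on ES replicate 1, 5.04, 5.43, 5.42 and 5.43 on ES replicate 2, and -0.24 to 0.18 in EB. On ES replicate 2 all 4 were near the scanner's limit, so their levels can be compared on ES replicate 1 only. The gaps between them were 303282, 268741 and 332361 bp.

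On chromosome 5, 3 EB-only loci started at 107967498, 108130832 and 108297253, with gaps of 163334 and 166421 bp, and 1 locus without signal lay among them. They had 4.02, 4.41 and 4.20 on EB replicate 1 and 2.53, 3.06 and 2.81 on EB replicate 2. On chromosome 10, 3 EB-only loci started at 130161367, 130188531 and 130214605, with gaps of 27164 and 26074 bp. Their values were 3.80, 4.26 and 4.86 on EB replicate 1 and 2.06, 2.18 and 2.54 on EB replicate 2. Whether the probes of these groups share sequence was not tested.

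Smaller groups had 2 loci each. On chromosome 17 the EB-only locus of 17 probes at 47361542 had a neighbour of 5 probes at 47032193, with EB at 6.50 and 5.24 and ES at 0.023 and 0.0091. In 1 neighbourhood the states alternated. On chromosome 6 a lone probe at 113159357 had 2.48 and 1.60 in ES with EB at -0.18 and 0.29. Only 143378 bp further, 4 probes starting at 113302735 had EB at 5.15 and 3.83 and ES at 0.097 and 0.25.

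The 4 loci of chromosome 13 between 62894767 and 63417449 held ES signal and EB signal side by side within about 1 kb. No other locus among the 1544 held both ES-only and EB-only probes. The locus means do not show this. The first, at 62894767 (8 probes), had 1.17 and 1.31 in ES with EB at 3.47 and 2.89. That at 63037392 (6 probes) had 1.32 and 1.59 in ES with EB at 3.72 and 3.33. That at 63271559 (7 probes) had 0.68 and 1.57 in ES with EB at 3.67 and 2.97. That at 63416212 (7 probes) had 1.36 and 1.80 in ES with EB at 3.14 and 2.31. By its mean, each was thus positive in both states or nearly so.

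Probe by probe, the states were mostly separate there. Of the 28 probes, 8 were ES-only, 17 EB-only and 0 positive on all 4 arrays, with 3 in other combinations. One of these, 100 bp into the locus at 62894767, was positive in both states on replicate 1 (2.81 in ES, 3.62 in EB) and in EB alone on replicate 2 (0.47 in ES, 4.69 in EB). The ES-only probes had medians of 3.40 and 5.35 in ES with EB at 0.10 and -0.23. The EB-only probes had medians of 6.05 and 5.03 in EB with ES at 0.022 and -0.13. In the loci at 62894767 and 63037392 the ES-only probes were the last pair along the chromosome (900 and 1000 bp, and 800 and 900 bp, after the first probe). In the other two they were the first pair (0 and 100 bp), and the EB-only probes followed from 500 bp on. The loci at 63271559 and 63416212 also shared 6 of their 7 probe offsets, and every other pair of the 4 shared 4 or 5. Whether the probes of the 4 loci share sequence was not tested, so the loci cannot be taken as independent. The locus at 63037392 shows the switch probe by probe. On EB replicate 1 its 6 probes had 3.19, 5.65, 6.05, 6.89, 0.35 and 0.16, and on ES replicate 1 0.22, -0.015, 0.017, -0.23, 4.32 and 3.61. On replicate 2 they had 5.24, 5.03, 4.70, 5.27, -0.32 and 0.053 in EB against -0.16, -0.18, -0.13, -0.27, 4.84 and 5.43 in ES. The switch lay in the 400 bp between the probes 400 and 800 bp after the first on both replicates. The EB minus ES difference of the locus means was 2.07 ± 0.19 at 63037392 (SE, limma adjusted p = 0.15) and 1.94 ± 0.24 at 62894767 (limma adjusted p = 0.18), and both were called with the trend (adjusted p = 0.0069 and 0.012). It was 2.19 ± 0.45 at 63271559 (limma adjusted p = 0.39, and 0.061 with the trend) and 1.14 ± 0.37 at 63416212 (limma adjusted p = 0.70), neither called. A lone EB-only probe followed at 63813029, with 5.76 and 3.29 in EB.

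Signal on all 4 arrays at the same probe was seen at 2 of the 2480 probes (0.0806%), against 0.2% of all tiling probes and 0.160% of the named autosomal trans probes. By locus means 5 loci qualified (0.324%, against 0.116% of all features), but 3 of them were chromosome 13 loci of the mixed kind above. The other 2 were lone probes. That at 41724305 on chromosome 6 had 2.93 and 2.21 in ES with EB at 3.98 and 2.09 (difference 0.46 ± 0.80, SE, limma adjusted p = 0.9996). That at 9091869 on chromosome 13 had 1.97 and 2.25 in ES with EB at 4.64 and 2.06 (1.24 ± 1.03, limma adjusted p = 0.9996). At both, the EB replicates differed more from each other than EB did from ES. Both also had bright input, at 0.71 to 1.63 and 0.76 to 3.71 log2 units over the tiling median. A further 5 loci were positive on all arrays but ES replicate 1, among them the mixed locus of chromosome 13 and a lone probe at 85854616 on chromosome 12, with ES at 0.067 and 1.30 and EB at 6.57 and 4.74.

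The input channel differed between kinds of locus. Loci without signal had median input of -0.57 log2 units on both ES arrays, with EB at -0.68 and -0.34, below the median of all tiling probes. The ES-only loci had 0.38 and -0.31 in ES with EB at -0.27 and -0.23, and the EB-only loci 0.24 and 0.16 in ES with EB at 0.58 and -0.14. Input of the loci with signal thus lay higher on each of the 4 arrays, and the part of this in the 4C pattern was not tested. With the log2 ratio of 4C product to input in place of the 4C signal, 4 loci were called higher in ES and 23 higher in EB (limma, adjusted p under 0.05), and 3 of the 4 loci named above as higher in ES were no longer called. Their differences on that scale were -4.34 at 79251600 on chromosome 1, -3.05 at 70442110 on chromosome 12 and -4.78 at 137467490 on chromosome 3. The share of all features called on that scale was not counted. The same ratio gave 60 ES-only and 42 EB-only loci, close to the 62 and 40 without it.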

How the data were processed

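Per the file headers, the deposited values are NimbleScan probe intensities (the PM column), 1 file per channel and array, extracted with version 2.3.78 for both replicate 1 arrays and 2.3.18 for both replicate 2 arrays. Whether the authors corrected background or normalized first was not given in the sources used here. Coordinates are mm6.

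The Cy5 intensity was taken as log2 and centred on each array's tiling median. Repeated spots (6) were averaged. Locus means and the means of named regions in 10 kb windows (6046 features) were fitted together in limma 3.58.1 (R 4.3.3), EB minus ES, without a block, with Benjamini-Hochberg adjustment over all features, after a test on simulated data. Other tables were made with pandas 2.3.3 (Python 3.11.15). The loci, lists and tests were chosen with earlier results of these data known. Loci named by rule were those called (of each direction up to 10 of at least 3 probes and 5 of 1 or 2 probes) and those positive on all 4 arrays. Same-numbered arrays share a date in the file headers, which is not known to be the day of scanning. Deviations from the state means correlated at r = 0.032 over the loci (0.092 over those without signal, 0.043 over all features), across loci within these arrays. Probe sequences and gene annotation of mm6 were not used here.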

Additional observations from a re-analysis of the deposited data

Results flagged for a closer look

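The input channel, which the comparisons of 4C signal do not use, differed between the states on the replicate 1 arrays. At the 62 ES-only loci, input of ES minus that of EB had a median of 0.52 log2 units, with ES higher at 50 of them. At the 40 EB-only loci the median was -0.19, with ES higher at 14. Loci without signal had a median of 0.16, with ES higher at 911 of 1364. On the replicate 2 arrays the medians were -0.072, 0.21 and -0.18, so the order of the ES-only and EB-only loci was turned there. The part of the input in the 4C pattern was not tested.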

How the results depend on the processing

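The 4 loci called higher in ES and 2 higher in EB became 0 and 0 with the replicate block, 33 and 35 with a trend over probe number, 61 and 42 with single probes, 10 and 27 with quantile normalization and 10 and 4 without dim input probes. Those for EB were 23 with the ratio to input and 6 with normexp. The share of all features called was counted only for the first fit, the trend and the single probes. Whether the other counts, including those with 1 array left out, were particular to these loci was thus not tested. Leaving out 1 array in turn gave 0 to 93 for ES and 2 to 22 for EB. The 62 ES-only loci were 62 to 107 and the 5 loci positive on all arrays 5 to 10 when 1 array was left out. In loci of at least 3 probes there were 28 ES-only, 16 EB-only and 3 positive on all arrays. Over all loci, the 5 positive on all arrays were 2 with the median over probes, 11 with the ratio, 13 with normexp, 1 at a level of 2 log2 units, and 3 with loci within 1 Mb counted once, an alternative added after seeing the data. With 1 array left out, the difference of the chromosome 6 probe at 41724305 ran from -0.48 to 1.40 and that of the chromosome 13 probe at 9091869 from -0.054 to 2.53, both lowest without EB replicate 1. With quantile normalization they were 2.04 and 2.57. Of the 143 values for named loci over the alternatives, 116 kept direction and call, 19 lost the call, 6 gained it and 2 reversed. All 19 lost calls fell on the 4 and 2 called loci. The 5 loci positive on all arrays had no call to lose, so the pooled count makes the calls look steadier than they were. The causes of these changes were not tested. Signal near the scanner limit bounds differences from below, and 4 arrays limit the precision.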
